A study of Homo sapiens with 12 samples.

Results

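The 10 genes described here encode the receptor tyrosine kinases MET, AXL, ERBB2, ERBB3, FGFR1, FGFR2, FGFR3, IGF1R, EPHA2 and EPHB4, measured by mRNA sequencing in HCC1806 cells. They were found as the rows of the expression table whose Ensembl identifier carries these symbols, and all 10 were among the 17013 genes tested. EGFR and KIT, the other receptors of this class that were set apart, appear only for comparison. HCC1806 is an established human line of triple-negative breast cancer (TNBC), a tumor type without estrogen or progesterone receptor and without ERBB2 amplification. All cells were transfected, either with a non-targeting siRNA (siNT) or with a pool of 4 siRNAs against MAP3K21, the gene of the mixed-lineage kinase MLK4 (siMLK4). They then received DMSO or 1 μM doxorubicin, an anthracycline that poisons topoisomerase II, for 24 h. This gave 4 groups of 3 libraries, named siNT DMSO, siNT doxorubicin, siMLK4 DMSO and siMLK4 doxorubicin. The knockdown was transient and the cells came from a single line. The short names of the labels mark the DMSO libraries as time 0, so harvest time and drug cannot be told apart if the groups were collected at different times. Per the methods each siRNA was transfected in triplicate, and whether these were separate experiments is not stated for the sequenced samples, so the p-values measure the spread between these transfections. The libraries held 16759025 to 19302248 reads on the tested genes.

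Receptor tyrosine kinases are single-pass membrane proteins that bind a growth factor, a membrane-bound ephrin or another ligand outside the cell, pair up, and phosphorylate each other and their adaptors inside it. The docked adaptors carry the signal to the RAS-ERK, PI3K-AKT and PLCγ pathways, and phosphatases and ubiquitin ligases shut it down. In basal-like breast cancer cells these receptors are best known for driving growth, survival and motility, and the activity of 1 receptor can stand in for another. mRNA levels say nothing of receptor protein, of phosphorylation or of activity.

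The 4 siRNAs of the pool are shown first because all siMLK4 groups rest on them. They are printed 5′ to 3′ as the sense strand, with the bases that pair with the guide's seed (bases 2 to 8 of the guide) in capitals.
siMLK4 siRNA 1: ggaaagaugcuCAGAGAGauu
siMLK4 siRNA 2: aggagaagcccAAGGUAAauu
siMLK4 siRNA 3: agaagaaacgaGAGGGAAuuu
siMLK4 siRNA 4: agaacagauugCAAAGAAauu
In order, their targets lie on the + strand of GRCh38 at chr1:233379030-233379048 (exon 9), chr1:233362204-233362222 (exon 5), chr1:233379276-233379294 (exon 9) and chr1:233376047-233376065 (exon 7). All 4 sites are in the coding sequence of MAP3K21, and no other annotated gene held the first 19 bases of any of them. Letters equal to a capitalised word occurred in annotated 3′UTRs of 6 receptors, namely MET, FGFR1, FGFR2, FGFR3, IGF1R and EPHB4, and of 50.2% of 13571 genes. AXL, EPHA2, ERBB2 and ERBB3 had none. These matches describe sequence and are not shown to be sites of action. Over all these genes the median log2 fold change of siMLK4 against siNT with DMSO was -0.04 with a match and 0.01 without.

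MAP3K21 itself was read as a check of the labels. With DMSO, the siNT libraries held 553.1, 670 and 674 normalized reads of it and the siMLK4 libraries 103.2, 94.7 and 88.7, where normalized reads are reads recovered from the deposited values and divided by the authors' size factors. With doxorubicin it had 758, 856 and 772 in siNT and 112.8, 138.4 and 94.4 in siMLK4 cells. Every siMLK4 library lay below every siNT library, and the log2 fold change was -2.24 with DMSO and -2.37 with doxorubicin.

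The labelled cell type was checked against markers. All 5 basal markers listed (KRT5, KRT14, KRT17, TP63 and EGFR) were in the table, and KRT5 was the most abundant, with 5954 to 33618 normalized reads. EPCAM had 7534 to 17069. Of the 4 luminal markers GATA3 was the most abundant in every library, with 1154 to 2994, and FOXA1 had 218.4 to 304.4. ESR1, the estrogen receptor gene, had 36.0 to 148.5, and PGR, the progesterone receptor gene, had 0 reads in all 6 DMSO libraries and 7.26 to 18.5 in the doxorubicin libraries. Of genes that mark other cell types, PECAM1, CDH5, CD68, CD3E, COL3A1 and DCN were not among the tested genes, and VWF had 13.5 to 67.1. PTPRC had 0 to 7.86 in the DMSO and 11.9 to 21.2 in the doxorubicin libraries, and PDGFRB had 11.4 to 26.1 and 1.02 to 6.78. PTPRC was called higher with doxorubicin in siMLK4 cells (0.84) and not in siNT cells (0.59), and its part in the receptor changes was not tested. COL1A1, a collagen gene listed for fibroblasts, had 320.6, 271.0 and 267.2 normalized reads in siNT DMSO and 513.0, 496.2 and 577.3 in siMLK4 DMSO libraries, and 284.2, 262.6 and 254.5 and 394.3, 343.5 and 478.1 with doxorubicin. Some markers differed with siMLK4. The 4 luminal markers summed to 1519 to 1773 normalized reads in siNT DMSO and 2272 to 3340 in siMLK4 DMSO libraries, and to 2030 to 2395 and 2657 to 2963 with doxorubicin. GATA3 made up most of this sum and was the 1 luminal marker of 4 past an adjusted p of 0.05, with DMSO (0.74, adjusted p = 0.00378) and not with doxorubicin (0.31, adjusted p = 0.174), and none of the 4 was called. The sum of the 4 epithelial markers, led by KRT8, overlapped with DMSO (52549 to 69268 in siNT and 45942 to 55381 in siMLK4 cells) and was lower with siMLK4 and doxorubicin (32063 to 43883 against 51551 to 60386). In the latter 3 of the 4 were lower and 0 higher at an adjusted p under 0.05, beside 12.1% and 12.7% of all genes. CDH1 lay the other way there, with 4310 to 4393 normalized reads in siMLK4 and 3014 to 3866 in siNT libraries. Of the basal keratins, KRT5 had 17185 to 22960 in siNT DMSO and 31405 to 33618 in siMLK4 DMSO libraries, while KRT14 had 5041 to 6932 and 2532 to 3477 and KRT17 had 3668 to 4794 and 2105 to 3239. KRT14 was lower with siMLK4 under DMSO and under doxorubicin (-1.05 and -1.26), as was KRT17 (-0.66 and -0.82). KRT5 was higher with DMSO (0.64), and its value with doxorubicin was -0.32 (adjusted p = 0.142). COL1A1 was higher with siMLK4, by 0.78 on the log2 scale with DMSO (limma, adjusted p = 0.000412) and by 0.51 with doxorubicin (adjusted p = 0.00748), and the part of these markers in the siMLK4 changes of the receptors was not tested. The basal markers summed to 37314, 42086 and 46657 normalized reads in siNT DMSO and to 17628, 18664 and 21473 in siNT doxorubicin. In siMLK4 cells the sums were 50786, 46247 and 45834 with DMSO and 13594, 12719 and 15530 with doxorubicin. The basal sum was thus lower in every doxorubicin library, alongside the receptor changes below, and its part in them was not tested. Of the 5 basal markers 4 were called lower with doxorubicin in either siRNA group, beside 10.6% of all genes. KRT17 overlapped between treatments, with 3743 to 4284 normalized reads in siNT and 2034 to 2699 in siMLK4 doxorubicin libraries.

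Fold changes were estimated with limma on the deposited variance-stabilized log2 values, which compress the changes of genes with few reads. The calls used here required both an adjusted p below 0.01 and a log2 fold change larger than 0.75 in size. With doxorubicin FGFR1 and EPHA2 were called higher and AXL lower, in siNT as in siMLK4 cells. In bulk RNA, fewer cells with a transcript and less of it per cell cannot be told apart. In siNT cells this was 2 of 10 receptors higher and 1 lower, beside 12.1% and 10.6% of all genes tested. In siMLK4 cells it was again 2 higher and 1 lower, beside 12.6% and 10.6% of all genes. With siMLK4 and DMSO FGFR2 was called higher and EPHA2 lower, which is 1 of 10 in each direction beside 2.51% higher and 3.14% lower among all genes. With siMLK4 and doxorubicin EPHA2 alone was called, lower, beside 2.66% higher and 2.93% lower among all genes. No receptor was called higher there with limma or with limma-voom, and 2, FGFR2 and FGFR3, were higher at an unadjusted p under 0.05.

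At an adjusted p under 0.05 with no limit on size, 4 receptors were higher and 3 lower with doxorubicin in siNT cells, beside 29.6% and 27.7% of all genes. In siMLK4 cells 2 were higher and 4 lower, beside 30.2% and 27.7%. With siMLK4 and DMSO 4 were higher and 2 lower, beside 12.7% and 13% of all genes. With siMLK4 and doxorubicin 2 were higher and 2 lower, beside 12.7% and 12.1%. The median log2 fold change over the 10 receptors was 0.17 with doxorubicin in siNT cells and -0.06 in siMLK4 cells, and 0.12 and 0.18 for siMLK4 against siNT with DMSO and with doxorubicin. The medians of all genes lay between 0.00 and 0.02 in these 4 comparisons. The difference of the doxorubicin responses (the response in siMLK4 cells minus that in siNT cells) was called for 0 receptors in either direction, beside 0.0999% of all genes higher and 0.176% lower. At an adjusted p under 0.05 it was higher for 0 and lower for 1 receptor, FGFR2, beside 0.576% and 0.623% of all genes. An unadjusted p under 0.05 was reached by 2 receptors, FGFR2 and ERBB3, and limma-voom also called 0. The doxorubicin and siRNA comparisons share their groups, so they are not independent of each other.

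**Figure D1:**
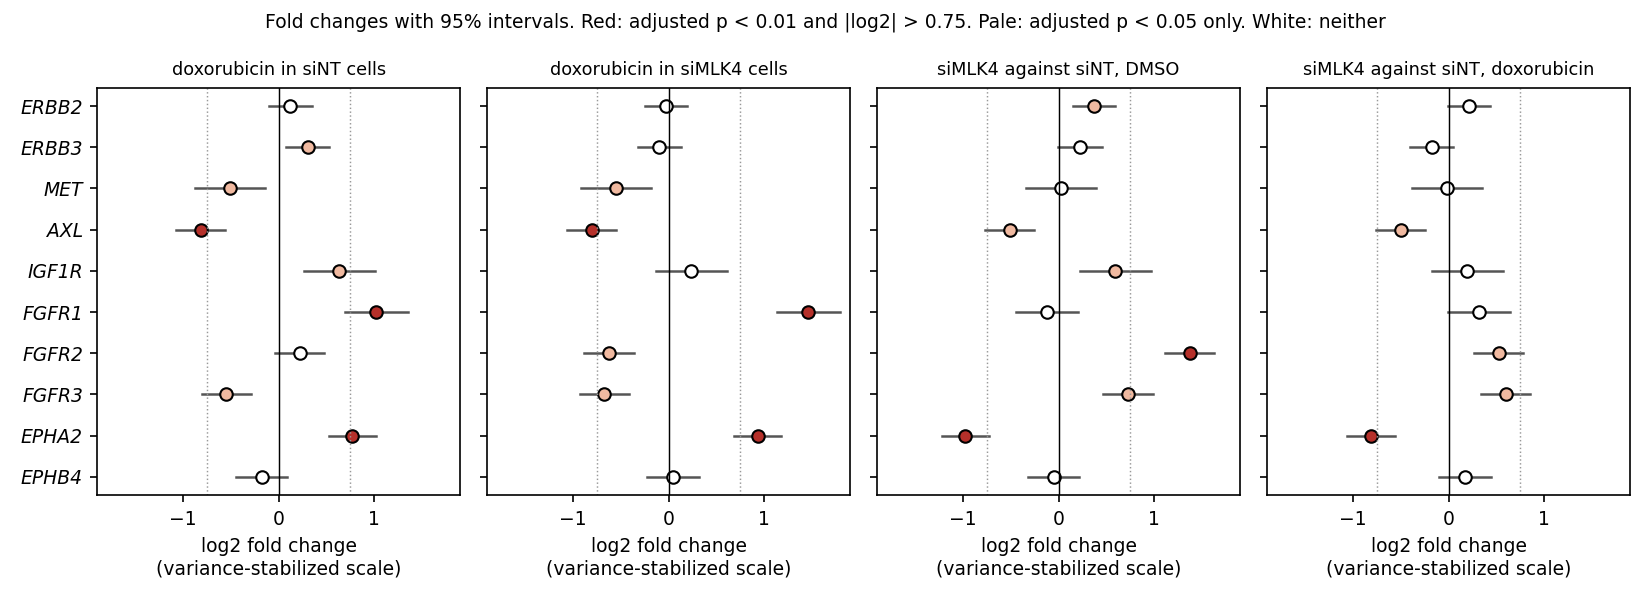
Log2 fold changes of the 10 receptors (x axis, variance-stabilized scale) in the 4 comparisons, with 95% intervals as lines and dotted lines at the size limit of the call. EPHA2 lies to the right with doxorubicin and to the left with siMLK4, and FGFR2 and FGFR3 lie to the right with siMLK4.

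ERBB2 (ENSG00000141736, + strand, chr17:39687914-39730426) encodes HER2, which has no known ligand and signals with partner receptors. It had 1272 to 1608 normalized reads in siNT DMSO and 1495 to 1645 in siNT doxorubicin libraries, and these ranges overlap. The siMLK4 libraries lay higher, at 1793 to 2027 with DMSO and 1797 to 1884 with doxorubicin. With DMSO the siMLK4 mean was 1.30 times the siNT mean (log2 fold change 0.37, SE 0.10, adjusted p = 0.0179). This passed the limit of 0.05 but not without siNT DMSO library 3 (adjusted p = 0.0709), without siMLK4 DMSO library 3 (adjusted p = 0.0531) or in a fit of these 2 groups alone (adjusted p = 0.0751). With doxorubicin the log2 fold change was 0.22 (adjusted p = 0.145). The doxorubicin responses were 0.12 (95% interval -0.10 to 0.35) in siNT and -0.03 (-0.25 to 0.19) in siMLK4 cells, and neither passed.

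ERBB3 (ENSG00000065361, + strand, chr12:56076799-56103505) encodes HER3, which binds neuregulins but has little kinase activity and is phosphorylated by its partners. It had 1678, 1750 and 2177 normalized reads in siNT DMSO and 2217, 2266 and 2430 in siNT doxorubicin libraries. In siMLK4 cells it had 2274, 2081 and 2175 with DMSO and 2011, 2063 and 2011 with doxorubicin. The doxorubicin libraries were thus the higher ones in siNT and the lower ones in siMLK4 cells, with no overlap in either. The log2 fold change with doxorubicin was 0.30 (SE 0.11, adjusted p = 0.0247) in siNT and -0.10 (SE 0.11, adjusted p = 0.443) in siMLK4 cells. The difference of the responses was -0.40 (SE 0.15, adjusted p = 0.220). The siNT value did not pass 0.05 without siNT DMSO library 1 or 2 (adjusted p = 0.0949 and 0.0897) or without siNT doxorubicin library 2 or 3 (adjusted p = 0.0513 and 0.0827), nor in a fit of these 2 groups alone (adjusted p = 0.0613).

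MET (ENSG00000105976, + strand, chr7:116672196-116798377) encodes the receptor of hepatocyte growth factor. It had the highest mean number of reads of the 10 in both DMSO groups, although EPHA2 had more in siNT DMSO library 1 (5003 against 3704). MET had 3704, 4003 and 5382 normalized reads in siNT DMSO and 2409, 3230 and 3476 in siNT doxorubicin libraries. With siMLK4 it had 5190, 4359 and 3726 with DMSO and 2877, 2710 and 3359 with doxorubicin. Every doxorubicin library lay below every DMSO library of its siRNA group. The doxorubicin mean was 69.6% of the DMSO mean in siNT cells (log2 fold change -0.51, SE 0.17, adjusted p = 0.0191) and 67.4% in siMLK4 cells (-0.55, SE 0.17, adjusted p = 0.0125). Neither reached the size limit of a call. The siNT value did not pass 0.05 without siNT DMSO library 3 (adjusted p = 0.0941) or siNT doxorubicin library 1 (adjusted p = 0.106), and the siMLK4 value did not without siMLK4 DMSO library 1 (adjusted p = 0.0563) or siMLK4 doxorubicin library 2 (adjusted p = 0.0514). The siMLK4 and siNT ranges overlap, with log2 fold changes of 0.03 (95% interval -0.34 to 0.39) with DMSO and -0.02 (-0.38 to 0.35) with doxorubicin.

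AXL (ENSG00000167601, + strand, chr19:41219223-41261766) encodes the receptor of GAS6, often high in mesenchymal breast cancer lines. It had few reads here, at 96.3, 78.9 and 90.9 normalized reads in siNT DMSO and 24.9, 33.6 and 42.6 in siNT doxorubicin libraries. The siMLK4 libraries held 42.1, 52.8 and 55.1 with DMSO and 16.96, 13.34 and 12.7 with doxorubicin. The DMSO libraries of siNT cells were the highest, the doxorubicin libraries of siMLK4 cells the lowest, and siMLK4 and siNT libraries did not overlap within a treatment. The doxorubicin mean was 38.0% of the DMSO mean in siNT cells and 28.7% in siMLK4 cells, and siMLK4 cells averaged 56.4% of siNT cells with DMSO and 42.5% with doxorubicin. On the variance-stabilized scale AXL fell by 0.82 (SE 0.12, adjusted p = 5.68e-05) with doxorubicin in siNT and by 0.81 (SE 0.12, adjusted p = 6.35e-05) in siMLK4 cells, and both were called. The siNT change was under the size limit without siNT doxorubicin library 1 (-0.72), and with library totals both were (-0.67 and -0.73). With siMLK4 the changes of -0.51 (adjusted p = 0.00641) and -0.50 (adjusted p = 0.00771) passed 0.05 but not the size limit. On the scale of limma-voom, which compresses low genes less, the 4 values were -1.42, -1.77, -0.82 and -1.18, and all 4 were called.

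IGF1R (ENSG00000140443, + strand, chr15:98648539-98964530) encodes the receptor of insulin-like growth factors and spans 316 kb, the longest of the 10 genes. It had 508.4, 586 and 787 normalized reads in siNT DMSO and 933, 1092 and 947 in siNT doxorubicin libraries. Its siMLK4 values were 1201, 955 and 768 with DMSO and 1174, 1312 and 959 with doxorubicin. The siNT DMSO libraries had the lowest mean and overlap siMLK4 DMSO alone, and the other 3 groups overlap each other. Its log2 change measured 0.64 (SE 0.17, adjusted p = 0.00607) with doxorubicin in siNT cells, 0.24 (adjusted p = 0.256) in siMLK4 cells, 0.60 (SE 0.17, adjusted p = 0.0209) with siMLK4 and DMSO and 0.20 (adjusted p = 0.445) with siMLK4 and doxorubicin. Without siNT DMSO library 3 the values for doxorubicin in siNT cells and for siMLK4 with DMSO rose to 0.80 and 0.76 and were called. The latter did not pass 0.05 without siNT DMSO library 1 or 2 (adjusted p = 0.0797 and 0.0682) or siMLK4 DMSO library 1 or 2 (adjusted p = 0.0896 and 0.0545), nor in a fit of these 2 groups alone (adjusted p = 0.0851).

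MET and IGF1R varied widely within the DMSO groups, and a property of the libraries moved with them. The length slope of a library is the change of its log2 values per doubling of transcript length, relative to the mean of all libraries, over 10574 genes. It was -0.13, 0.01 and 0.12 in siNT DMSO libraries 1, 2 and 3 and 0.13, 0.03 and -0.16 in siMLK4 DMSO libraries 1, 2 and 3. In both groups the order of MET and of IGF1R followed it. In the doxorubicin libraries the slope was -0.08, 0.07 and -0.01 in siNT and 0.00, 0.08 and -0.06 in siMLK4 cells, and there IGF1R followed it in both groups while MET did not. EPHA2 did not follow it in siNT DMSO cells. With the slope as a covariate, an alternative chosen after seeing the data, IGF1R was higher with doxorubicin in siMLK4 cells (0.23, adjusted p = 0.0155). In that fit the differences of the responses of IGF1R (-0.42, adjusted p = 0.0297, against 0.503 without the slope) and of ERBB3 (-0.41, adjusted p = 0.0371, against 0.220) passed 0.05, as did ERBB3 for siMLK4 with DMSO (0.22, adjusted p = 0.0351) and ERBB2 for siMLK4 with doxorubicin (0.22, adjusted p = 0.0237).

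**Figure D2:**
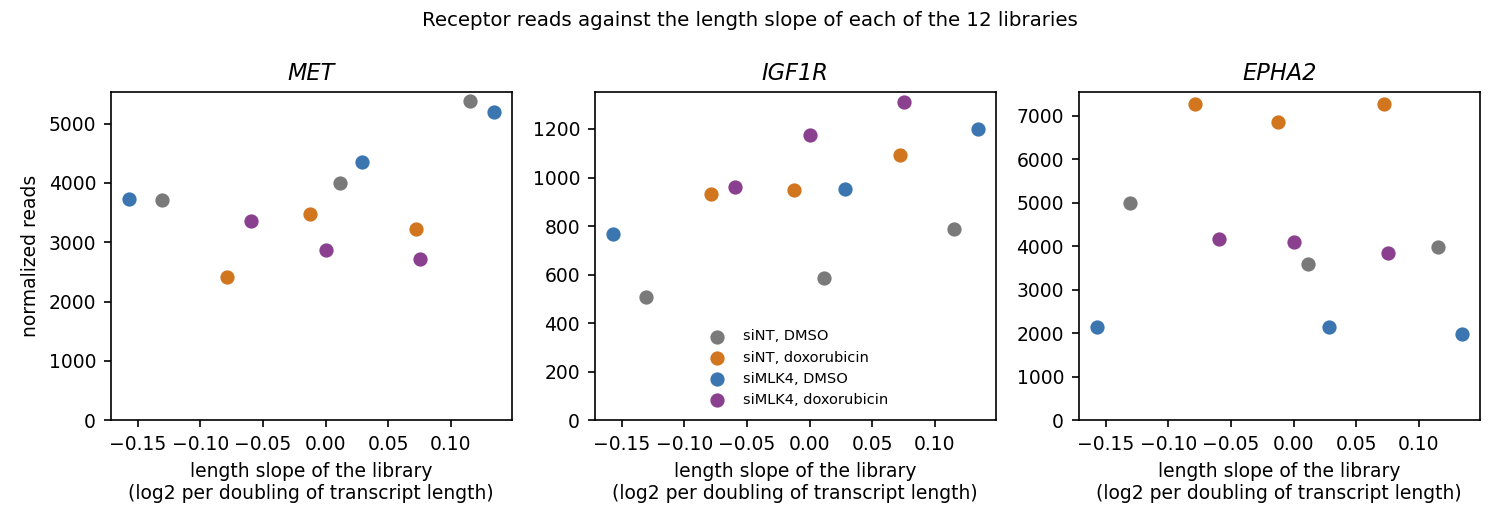
Normalized reads (y axis, from 0) of MET, IGF1R and EPHA2 in each of the 12 libraries against the length slope of the library (x axis, log2 per doubling of transcript length), colored by group. In the DMSO groups MET and IGF1R lie higher where the slope is higher, and the siNT doxorubicin and siMLK4 DMSO groups of EPHA2 stay apart at any slope.

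The fibroblast growth factor receptors are kinases whose ligands bind together with heparan sulfate or Klotho co-receptors. FGFR1 (ENSG00000077782, - strand, chr8:38400215-38468834) had the fewest reads per kilobase of the 10 genes in siNT DMSO cells, and rose most with doxorubicin. It had 88.1, 99.7 and 96.5 normalized reads in siNT DMSO and 251.0, 243.3 and 228.1 in siNT doxorubicin libraries. In siMLK4 cells it had 78.2, 105.6 and 69.2 with DMSO and 320.5, 399.4 and 235.9 with doxorubicin. The doxorubicin libraries lay above all DMSO libraries. The mean was 2.54 times the DMSO mean in siNT cells (log2 fold change 1.02, SE 0.15, adjusted p = 6.4e-05) and 3.78 times in siMLK4 cells (1.47, SE 0.15, adjusted p = 3e-06). The difference of the responses was 0.44 (95% interval -0.02 to 0.90, adjusted p = 0.370). The siMLK4 and siNT libraries overlap, at -0.12 (adjusted p = 0.601) with DMSO and 0.32 (adjusted p = 0.146) with doxorubicin, and the latter passed 0.05 without siMLK4 doxorubicin library 3 (0.49, adjusted p = 0.0227).

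FGFR2 (ENSG00000066468, - strand, chr10:121478332-121598458), whose epithelial form binds factors from the stroma, had 373.4, 447.5 and 467 normalized reads in siNT DMSO and 436.5, 537.5 and 552 in siNT doxorubicin libraries. With siMLK4 it had 1331, 1094 and 1158 with DMSO and 771, 689 and 798 with doxorubicin. Each siMLK4 library lay above every siNT library, and the siMLK4 DMSO libraries were the highest. The siMLK4 mean was 2.78 times the siNT mean with DMSO (log2 fold change 1.37, SE 0.12, adjusted p = 3.78e-06) and 1.48 times with doxorubicin (0.53, SE 0.12, adjusted p = 0.00626), of which the first was called. With doxorubicin FGFR2 fell by 0.63 (SE 0.12, adjusted p = 0.000545) in siMLK4 cells, while the value in siNT cells was 0.22 (95% interval -0.04 to 0.48, adjusted p = 0.138). The difference of the responses was -0.85 (SE 0.17, 95% interval -1.22 to -0.48, adjusted p = 0.0281). Without siNT DMSO library 1, siNT doxorubicin library 2 or 3, siMLK4 DMSO library 1, or siMLK4 doxorubicin library 1 or 2 this adjusted p was 0.0562 to 0.0841, with differences of -0.76 to -0.87. The difference was called (-0.85, adjusted p = 0.00264) with the length slope as a covariate.

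FGFR3 (ENSG00000068078, + strand, chr4:1793293-1808872), the shortest gene of the 10 at 15.6 kb, is a receptor of epithelia and cartilage. It had 492, 558.5 and 532.1 normalized reads in siNT DMSO and 383.9, 353.2 and 301.1 in siNT doxorubicin libraries. The siMLK4 libraries held 995, 791 and 946 with DMSO and 554, 604 and 492 with doxorubicin. Within each siRNA group the doxorubicin libraries were lower, and within each treatment the siMLK4 libraries were higher, with no overlap in any of these 4 comparisons. FGFR3 fell with doxorubicin to 65.6% of the DMSO mean in siNT cells (log2 fold change -0.55, SE 0.12, adjusted p = 0.00149) and to 60.4% in siMLK4 cells (-0.68, SE 0.12, adjusted p = 0.000286). The siMLK4 mean was 1.73 times the siNT mean with DMSO (0.73, SE 0.12, adjusted p = 0.000643) and 1.59 times with doxorubicin (0.60, SE 0.12, adjusted p = 0.00257). All 4 changes passed 0.05 and none reached the size limit. Without siNT DMSO library 2 or siMLK4 DMSO library 2 the siMLK4 change with DMSO was 0.77 and 0.82 and was called, as it was with limma-voom (0.78), and without siMLK4 DMSO library 2 so was the doxorubicin change in siMLK4 cells (-0.77).

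EPHA2 and EPHB4 are Eph receptors, which bind ephrins on neighbouring cells and act in cell contact, repulsion and motility. EPHA2 (ENSG00000142627, - strand, chr1:16124337-16156069) was the most abundant of the 10 per kilobase in 3 of the 4 groups, all but siMLK4 DMSO. It had 5003, 3584 and 3994 normalized reads in siNT DMSO and 7263, 7280 and 6857 in siNT doxorubicin libraries. Its siMLK4 values were 1976, 2144 and 2142 with DMSO and 4088, 3848 and 4160 with doxorubicin. The siNT doxorubicin libraries were the highest and the siMLK4 DMSO libraries the lowest, and siNT DMSO and siMLK4 doxorubicin libraries overlap. With doxorubicin the mean was 1.70 times the DMSO mean in siNT cells (log2 fold change 0.77, SE 0.12, adjusted p = 6.99e-05) and 1.93 times in siMLK4 cells (0.93, SE 0.12, adjusted p = 1.37e-05). In siMLK4 cells the mean was 49.8% of that in siNT cells with DMSO (-0.98, SE 0.12, adjusted p = 4.51e-05) and 56.5% with doxorubicin (-0.82, SE 0.12, adjusted p = 0.000229). All 4 were called, and with limma on the variance-stabilized values no other of the 10 receptors was called in all 4 comparisons, while limma-voom called both EPHA2 and AXL in all 4. The first change was under the size limit without siNT DMSO library 2 (0.67) or library 3 (0.74) and with another scaling, the trimmed mean of M-values (0.74), and the last was under it when values were scaled by library totals (-0.73). The difference of the responses was 0.16 (95% interval -0.19 to 0.51, adjusted p = 0.731).

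EPHB4 (ENSG00000196411, - strand, chr7:100802565-100827523), known for its part with ephrin-B2 in blood vessels and expressed in many carcinomas, passed no test. It had 1185 to 1620 normalized reads in siNT DMSO, 1127 to 1429 in siNT doxorubicin, 1266 to 1425 in siMLK4 DMSO and 1290 to 1483 in siMLK4 doxorubicin libraries, and all 4 ranges overlap. The 95% intervals of its log2 fold changes were -0.45 to 0.09 with doxorubicin in siNT and -0.23 to 0.31 in siMLK4 cells. For siMLK4 against siNT they were -0.32 to 0.22 with DMSO and -0.10 to 0.44 with doxorubicin.

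**Figure D3:**
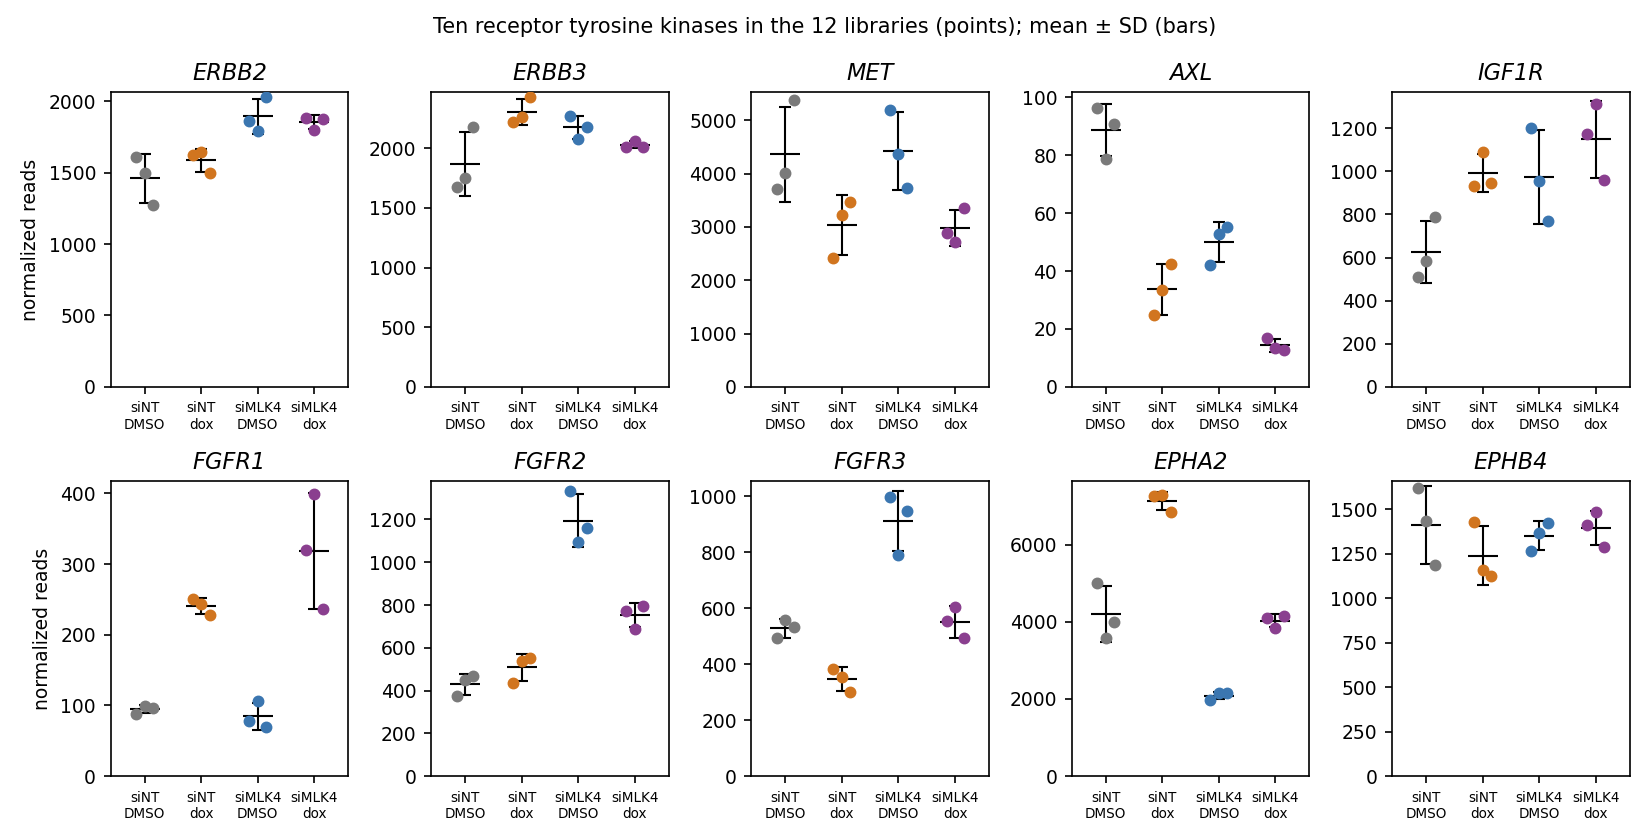
Normalized reads (y axes, from 0) of the 10 receptors in each of the 12 libraries (points) by group, with the mean ± SD (n = 3) as black bars. On average AXL is lowest and FGFR1 highest in the siMLK4 doxorubicin group, FGFR2 and FGFR3 are highest in the siMLK4 DMSO group, and EPHA2 is lowest there.

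EPHA2 moved opposite to FGFR3 and FGFR2 over the 12 libraries, so the bases just upstream of these 3 genes are shown. Over all 12 libraries Pearson's r was -0.97 between EPHA2 and FGFR3, -0.80 between EPHA2 and FGFR2 and 0.77 between FGFR2 and FGFR3. These describe 12 libraries that share groups and carry no test. The windows are the 250 bases before the first listed RefSeq start of each gene (GRCh38.p14), printed 5′ to 3′ on the strand of the gene. Capitals mark GC boxes (GGGCGG, on either strand, where CCGCCC is its reverse) and, in EPHA2, the palindrome TGACGTCA, the letters of a cAMP response element. No capitalised motif overlaps another.
EPHA2, chr1:16156070-16156319, - strand: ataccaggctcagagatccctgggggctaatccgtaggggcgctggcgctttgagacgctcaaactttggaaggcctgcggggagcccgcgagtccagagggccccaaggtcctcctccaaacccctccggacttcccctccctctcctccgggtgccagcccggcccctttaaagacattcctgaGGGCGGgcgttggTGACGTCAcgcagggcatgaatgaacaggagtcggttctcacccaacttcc
FGFR3, chr4:1793043-1793292, + strand: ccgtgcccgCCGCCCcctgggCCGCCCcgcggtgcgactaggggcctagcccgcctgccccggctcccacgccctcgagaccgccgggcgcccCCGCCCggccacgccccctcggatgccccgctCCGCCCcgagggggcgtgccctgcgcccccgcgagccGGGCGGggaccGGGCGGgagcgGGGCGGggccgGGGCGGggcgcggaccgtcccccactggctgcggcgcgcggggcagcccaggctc
FGFR2, chr10:121598445-121598694, - strand: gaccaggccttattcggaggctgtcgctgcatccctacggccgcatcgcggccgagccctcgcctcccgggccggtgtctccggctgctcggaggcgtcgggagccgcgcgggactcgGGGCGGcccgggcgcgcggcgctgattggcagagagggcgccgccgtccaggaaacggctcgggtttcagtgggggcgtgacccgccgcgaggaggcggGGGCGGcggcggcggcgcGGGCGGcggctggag
EPHA2 had 1 GC box and 63.2% G and C, FGFR3 8 GC boxes and 86.8%, and FGFR2 3 GC boxes and 78.4%, against a median of 58% over the first windows of 27305 genes. A GC box occurred in 42.3% of those windows and in 7 of the 8 receptors found in the sequence table, all but ERBB2. TGACGTCA occurred in 1.77% of the windows and, of the 8, in EPHA2. The letters searched also included TGAGTCA or TGACTCA (4.16% of windows), CACGTG (6.49%) and TATAAA (11.1%), on both strands, and none was in the 8 windows. A match is a description of letters, not a binding site.

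Between genes, levels were compared as normalized reads per kilobase of the longest annotated transcript. In siNT DMSO cells EPHA2 led with a mean of 1063 ± 185 (SD, n = 3) normalized reads per kilobase, followed by MET with 635 ± 130 (SD, n = 3). ERBB3, ERBB2 and EPHB4 came next with means of 298, 296 and 279 and overlapping libraries, and FGFR3 stood apart from its neighbours with 122. FGFR2 and IGF1R overlap at 61.6 and 51.2. AXL and FGFR1 were lowest at 18.8 and 15.2 and did not overlap. With siMLK4 and DMSO the libraries of MET (644) and EPHA2 (528.9) overlap at the top, and FGFR2 reached 171, near FGFR3 at 211. With siMLK4 and doxorubicin EPHA2 led again at 1022, FGFR1 stood at 51.3 and AXL was last at 3.04. Per kilobase of all annotated exons joined, EPHB4 ranked above ERBB3 and ERBB2 and IGF1R above FGFR2 in siNT DMSO cells, so these positions depend on the length used.

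**Figure D4:**
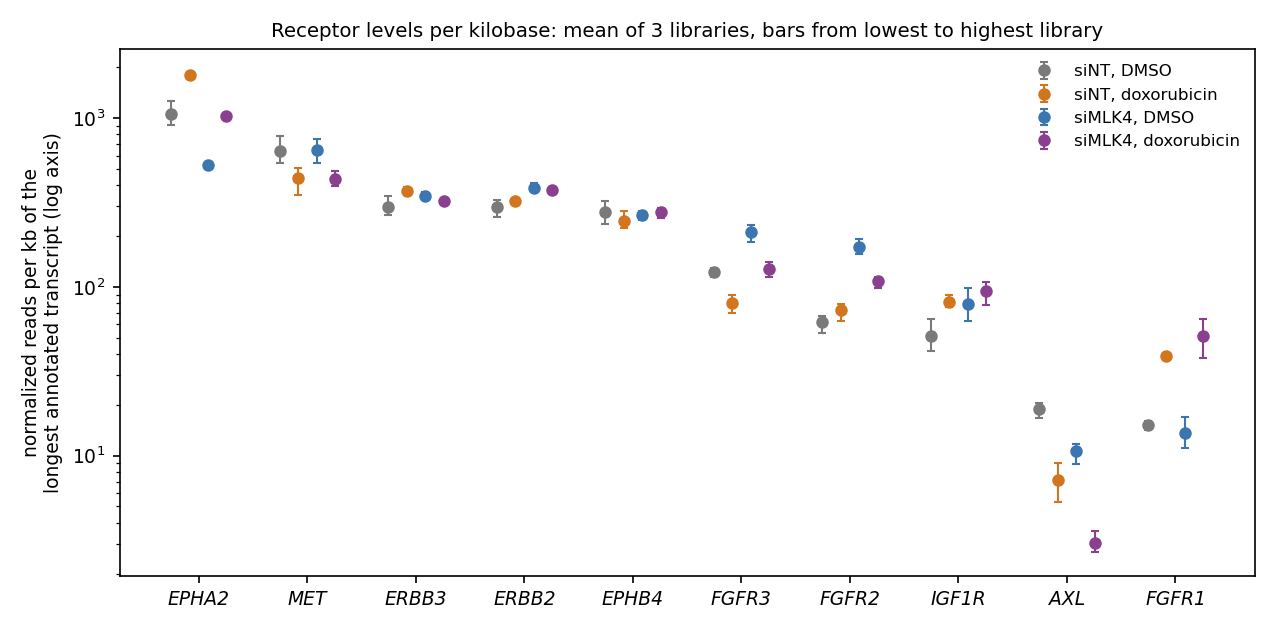
Mean normalized reads per kilobase of the longest annotated transcript (y axis, log scale) of the 10 receptors by group, with bars from the lowest to the highest of 3 libraries. EPHA2 and MET lie highest in all 4 groups, and AXL and FGFR1 lowest.

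The summed normalized reads of the 10 receptors were 15171, 14037 and 15984 in siNT DMSO and 16968, 17843 and 17456 in siNT doxorubicin libraries. In siMLK4 cells they were 16214, 14742 and 14490 with DMSO and 15111, 14919 and 15195 with doxorubicin. The siNT doxorubicin sums were the highest, and the other groups overlap. Within the sum EPHA2 made up 27.8 ± 4.5% (SD, n = 3) in siNT DMSO, 41.0 ± 1.8% in siNT doxorubicin, 13.8 ± 1.4% in siMLK4 DMSO and 26.7 ± 0.84% in siMLK4 doxorubicin libraries. MET made up 28.9 ± 4.6%, 17.4 ± 2.9%, 29.1 ± 3.2% and 19.8 ± 2.1% in the same order. FGFR2 made up 2.86% in siNT DMSO and 7.87% in siMLK4 DMSO libraries.

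Little of the sequence of the 10 genes occurs elsewhere. Stretches of 50 bases shared with any other gene made up at most 0.916% of those of a receptor, in AXL. Tested genes on the opposite strand overlap ERBB2 (PGAP3 and MIEN1), FGFR1 (LETM2), EPHB4 (SLC12A9) and EPHA2 (EPHA2-AS1, with a mean of 12.02 normalized reads), and the authors' counting used strand. Annotated genes outside the table also lie opposite AXL, FGFR1 and IGF1R. The lowest number of reads behind any receptor value was 14, for AXL in a siMLK4 doxorubicin library.

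The genes whose pattern was most like that of a receptor over the 12 libraries, by Pearson's r on the deposited values, were UBXN2B (0.988) and PUM2 (0.971) for MET, PGK1 (0.990) and EIF4B (0.985) for AXL, and MASTL (0.993) and MCOLN1 (0.992) for FGFR1. For FGFR2 they were FIG4 (0.988) and CDH10 (0.9753), for FGFR3 COL6A1 (0.984) and MAPK8IP3 (0.979), and for EPHA2 IFRD1 (0.981) and SNRNP27 (0.977). For IGF1R they were ZNF611 (0.964) and UBN2 (0.963), and for ERBB2 COQ8B (0.967) and ABCC6 (0.931). ERBB3 (KAT2B, 0.882, and EPB41L1, 0.872) and EPHB4 (EGFL7, 0.909, and SPATA2L, 0.887) had the least close neighbours. The values come from 4 groups of 3 libraries and describe those libraries.

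Of 34 ligand genes listed for these receptors 16 were tested, and HGF, IGF1 and IGF2 were not among them. With doxorubicin 0 were called higher and 3 lower in siNT cells and 1 higher and 4 lower in siMLK4 cells, and the median log2 fold changes were -0.33 and -0.31. The shares of all genes were 12.1% higher and 10.6% lower in siNT and 12.6% and 10.6% in siMLK4 cells. GAS6, the ligand of AXL, fell with its receptor. It had 4915, 4382 and 3728 normalized reads in siNT DMSO and 1427, 1314 and 939 in siNT doxorubicin libraries, and 3606, 4027 and 4207 with DMSO and 1750, 1850 and 1528 with doxorubicin in siMLK4 cells. All doxorubicin libraries lay below all DMSO libraries, and the log2 fold change was -1.79 in siNT and -1.18 in siMLK4 cells. NRG4, a ligand of the ERBB family, and EFNB3, an ephrin that binds EphB receptors, were also called lower in both (-1.17 and -1.42 in siNT and -1.40 and -2.26 in siMLK4 cells). FGF2, a ligand of the FGF receptors, was called higher in siMLK4 cells (0.92). It was also higher in siNT cells, under the size limit (0.71, adjusted p = 0.000427), where limma-voom called it (0.87). Its difference of responses was 0.21 (adjusted p = 0.685). In siNT cells limma-voom called 1 ligand higher, 2 were higher at an unadjusted p under 0.05, and 1 was higher and 7 lower at an adjusted p under 0.05, beside 29.6% and 27.7% of all genes.

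For siMLK4 against siNT with DMSO 3 ligands were called higher and 2 lower, and with doxorubicin 0 and 2, with medians of 0.22 and 0.16. Among all genes 2.51% were called higher and 3.14% lower with DMSO and 2.66% and 2.93% with doxorubicin. In the latter limma-voom called 1 higher, and 6 were higher at an unadjusted p under 0.05. NRG1, which binds ERBB3, had 1717, 1310 and 1879 normalized reads in siNT DMSO and 758, 725 and 705 in siMLK4 DMSO libraries. With doxorubicin it had 940, 1077 and 1156 in siNT and 481, 488 and 569 in siMLK4 cells. Every siMLK4 library was the lower one within a treatment, with log2 fold changes of -1.09 (adjusted p = 4.51e-05) and -0.97 (adjusted p = 0.000144). FGF2 was lower with siMLK4 and DMSO (-0.88, adjusted p = 0.00033). With doxorubicin it was also lower, under the size limit (-0.67, adjusted p = 0.00237), and limma-voom called it (-0.81). EFNB3 (1.11), PROS1, which binds TYRO3 and MERTK, the relatives of AXL (0.94), and NRG4 (0.77) were higher with siMLK4 and DMSO. The EFNB3 change was not called on log2(normalized reads + 1) (1.62, adjusted p = 0.0135). The NRG4 value was under the size limit without siNT DMSO library 1 (0.67) or siMLK4 DMSO library 1 (0.71). EFNB2, the ephrin that binds EPHB4, was lower with siMLK4 and doxorubicin (-0.81), and under the size limit without siNT doxorubicin library 3 (-0.72) or siMLK4 doxorubicin library 2 (-0.73) and with library totals (-0.73).

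Of 19 co-receptors and ligand-binding proteins 17 were tested. With doxorubicin 3 were called higher and 5 lower in siNT cells (all genes 12.1% and 10.6%) and 3 and 3 in siMLK4 cells (all genes 12.6% and 10.6%). FGFBP1, which releases FGFs from the matrix, had 3044, 2607 and 2292 normalized reads in siNT DMSO and 553, 473.3 and 610 in siNT doxorubicin libraries, and 1288, 1232 and 1591 with DMSO and 118.7, 115.1 and 184 with doxorubicin in siMLK4 cells. It was lower with doxorubicin and with siMLK4, with log2 fold changes of -2.17 and -2.92 for doxorubicin and -0.92 and -1.67 for siMLK4 with DMSO and with doxorubicin. KL, the Klotho co-receptor of FGFRs, had 0 to 4.32 normalized reads with DMSO and 28.1 to 56.7 with doxorubicin, with log2 fold changes of 1.34 and 1.36, and IGFBP7 rose (1.05 and 1.07). KLB, the related beta-Klotho, was called higher in siNT cells (0.86, but 0.71 without siNT DMSO library 3), and SDC4, a heparan sulfate proteoglycan, in siMLK4 cells (0.82). Under the size limit, KLB was also higher in siMLK4 cells (0.53, adjusted p = 0.00309) and SDC4 in siNT cells (0.64, adjusted p = 0.000607). Their differences of responses did not pass 0.05 (adjusted p = 0.468 and 0.706). GPC1, another such proteoglycan, fell by 1.46 in siNT and by 0.78 in siMLK4 cells, where it was under the size limit without siMLK4 DMSO or doxorubicin library 3 (-0.74 and -0.70) and with library totals (-0.59). IGFBP4, which binds insulin-like growth factors, was called lower in siNT cells (-1.05). Its change in siMLK4 cells (-0.61, adjusted p = 0.0250) was not called, and its difference of responses was 0.44 (adjusted p = 0.560). MUC4, a membrane mucin that binds ERBB2, was called lower in siNT and in siMLK4 cells (-0.88 and -0.78). Its siNT change was under the size limit without siNT DMSO library 3 (-0.73). The siMLK4 change was not called without siMLK4 DMSO library 1 (-0.63) or doxorubicin library 1 (-0.71) or with library totals (-0.72). With siMLK4 0 were called higher and 3 lower with DMSO (all genes 2.51% and 3.14%), and 0 and 2 with doxorubicin (all genes 2.66% and 2.93%). CD44, a hyaluronan receptor whose variants act with MET, had 50993, 69879 and 76787 normalized reads in siNT DMSO and 35805, 34017 and 24979 in siMLK4 DMSO libraries (-1.06, and -1.32 with doxorubicin). NRP1, a co-receptor of several growth factors, was lower with DMSO (-1.17). In a fit of the DMSO groups alone neither CD44 (adjusted p = 0.0187) nor NRP1 (adjusted p = 0.0103) was called with DMSO. Limma-voom also called 0 higher, and at an unadjusted p under 0.05 there were 2 higher with DMSO and 3 with doxorubicin.

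Of 14 proteases and protease inhibitors that act on receptors or their ligands 13 were tested, and 2 were called higher and 2 lower with doxorubicin in either siRNA group. This is 15.4% each way, near the 12.1% and 10.6% of all genes in siNT and the 12.6% and 10.6% in siMLK4 cells. PAPPA, which cuts IGF-binding proteins, rose from 78.7, 63.3 and 80.8 to 394, 470.3 and 387.3 normalized reads in siNT cells, and from 24.1, 33.9 and 25.9 to 174.7, 208.5 and 175.1 in siMLK4 cells (log2 fold changes 1.94 and 1.72). TIMP3, an inhibitor of sheddases, fell (-1.46 and -1.66), as did TMPRSS13, a membrane serine protease (-0.92 and -1.44, with -0.72 in siNT cells under library totals). TIMP3 and PAPPA were lower with siMLK4, and they were the 2 called with either treatment (all genes 3.14% lower with DMSO and 2.93% with doxorubicin). TMPRSS13 was not called with siMLK4 (0.58 with DMSO and 0.06 with doxorubicin). TIMP3 changed by -1.20 and -1.39 with DMSO and with doxorubicin and PAPPA by -0.77 and -0.98, and the PAPPA change with DMSO was under the size limit without siNT DMSO library 1 or 3 or siMLK4 DMSO library 1 or 3 (-0.723 to -0.746) and with library totals (-0.67). FURIN, which cleaves the precursors of MET and IGF1R, rose with doxorubicin (0.79 and 0.91), and was under the size limit in siNT cells without siNT DMSO library 1 (0.69) or siNT doxorubicin library 2 (0.748).

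Of 34 adaptors and effectors 31 were tested. With doxorubicin 3 were called higher and 6 lower in siNT cells, or 9.68% and 19.4%, and 3 and 3 in siMLK4 cells, or 9.68% each way. The higher shares lie below those of all genes (12.1% and 12.6%), and for lower calls all genes gave 10.6% in both. PIK3R3, a regulatory subunit of PI3-kinase, had 123.3, 152.6 and 148.2 normalized reads in siNT DMSO and 1073, 1218 and 708 in siNT doxorubicin libraries, and 537, 552 and 431.4 with DMSO and 2269, 2620 and 1684 with doxorubicin in siMLK4 cells. It rose with doxorubicin (2.43 and 1.99) and with siMLK4 (1.54 with DMSO and 1.10 with doxorubicin). DOK1, a docking protein (1.11 and 1.45), and PLCG2, a phospholipase C (0.87 and 0.81), rose with doxorubicin, and PLCG2 in siMLK4 cells was under the size limit without siMLK4 doxorubicin library 2 (0.66). SHC1, an adaptor to the RAS pathway, fell with doxorubicin (-1.28 and -1.40), as did VAV3, a guanine nucleotide exchange factor (-1.09 and -1.34). GAB2, a docking protein, was called lower in siNT cells (-1.14), and its change in siMLK4 cells (-0.63) was not called. PIK3CB, a catalytic subunit of PI3-kinase, was called lower in siNT and in siMLK4 cells (-0.86 and -1.01). Its siNT change was under the size limit without siNT doxorubicin library 1 (-0.73) or with library totals (-0.63). With siMLK4 3 were called higher and 1 lower with DMSO (all genes 2.51% and 3.14%) and 2 and 1 with doxorubicin (all genes 2.66% and 2.93%). VAV3 was higher (1.57 and 1.32) and the adaptor NCK2 lower (-1.14 and -0.82). PIK3R1, a regulatory subunit of PI3-kinase, was called higher with DMSO (1.06), but not without siMLK4 DMSO library 1 or 2 (adjusted p = 0.0110 and 0.0126) or in a fit of the DMSO groups alone (adjusted p = 0.0258).

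All 29 negative regulators listed were tested, and 3 were called higher and 4 lower with doxorubicin in siNT cells and 4 and 4 in siMLK4 cells. These shares of 10.3% and 13.8% and of 13.8% each way lie near those of all genes (12.1% and 10.6%, and 12.6% and 10.6%). PTPRF, a receptor-type phosphatase, fell from 3727, 5084 and 5499 to 1572, 1955 and 2055 normalized reads in siNT cells (-1.32, and -1.32 in siMLK4 cells). CBLC, a ubiquitin ligase of the CBL family, was called lower in both (-1.24 and -1.27), and its relative CBLB in siMLK4 cells (-0.94). RNF41, a ubiquitin ligase known to act on ERBB3, was called lower in siNT cells (-1.02). Under the size limit, RNF41 was also lower in siMLK4 cells (-0.742, adjusted p = 0.000539), where limma-voom called it (-0.798). CBLB was also lower in siNT cells, again under that limit (-0.648, adjusted p = 0.00576). The differences of responses of RNF41 and CBLB were 0.28 (adjusted p = 0.589) and -0.30 (adjusted p = 0.651). SPRED3, a brake on RAS signalling, rose (1.498 and 1.45), as did LRIG1, which promotes the turnover of ERBB receptors (0.84 and 1.19), and SOCS3, an inhibitor of cytokine signalling (0.91 and 0.79, with 0.746 in siMLK4 cells without siMLK4 DMSO library 3). With siMLK4 1 was called higher and 1 lower with either treatment, which is 3.45% each way beside 2.51% and 3.14% of all genes with DMSO and 2.66% and 2.93% with doxorubicin. PTPRJ, a phosphatase known to act on MET, was the higher one in both (1.05 and 0.85), and its adjusted p with doxorubicin was 0.0102 to 0.0114 without siNT doxorubicin library 3 or siMLK4 doxorubicin library 1 or 2. The lower ones were SPRED1, a relative of SPRED3, with DMSO (-0.78) and PTPRB, a receptor-type phosphatase, with doxorubicin (-0.78). SPRED1 was not called without siNT DMSO library 3 (-0.67) or siMLK4 DMSO library 3 (-0.66), with library totals (-0.64) or in a fit of the DMSO groups alone (adjusted p = 0.0227). PTPRB was not called with library totals (-0.745), without siNT doxorubicin library 2 or 3 or siMLK4 doxorubicin library 1 or 2 (adjusted p = 0.0194 to 0.0403), or without siMLK4 DMSO library 2 (adjusted p = 0.0109).

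**Figure D5:**
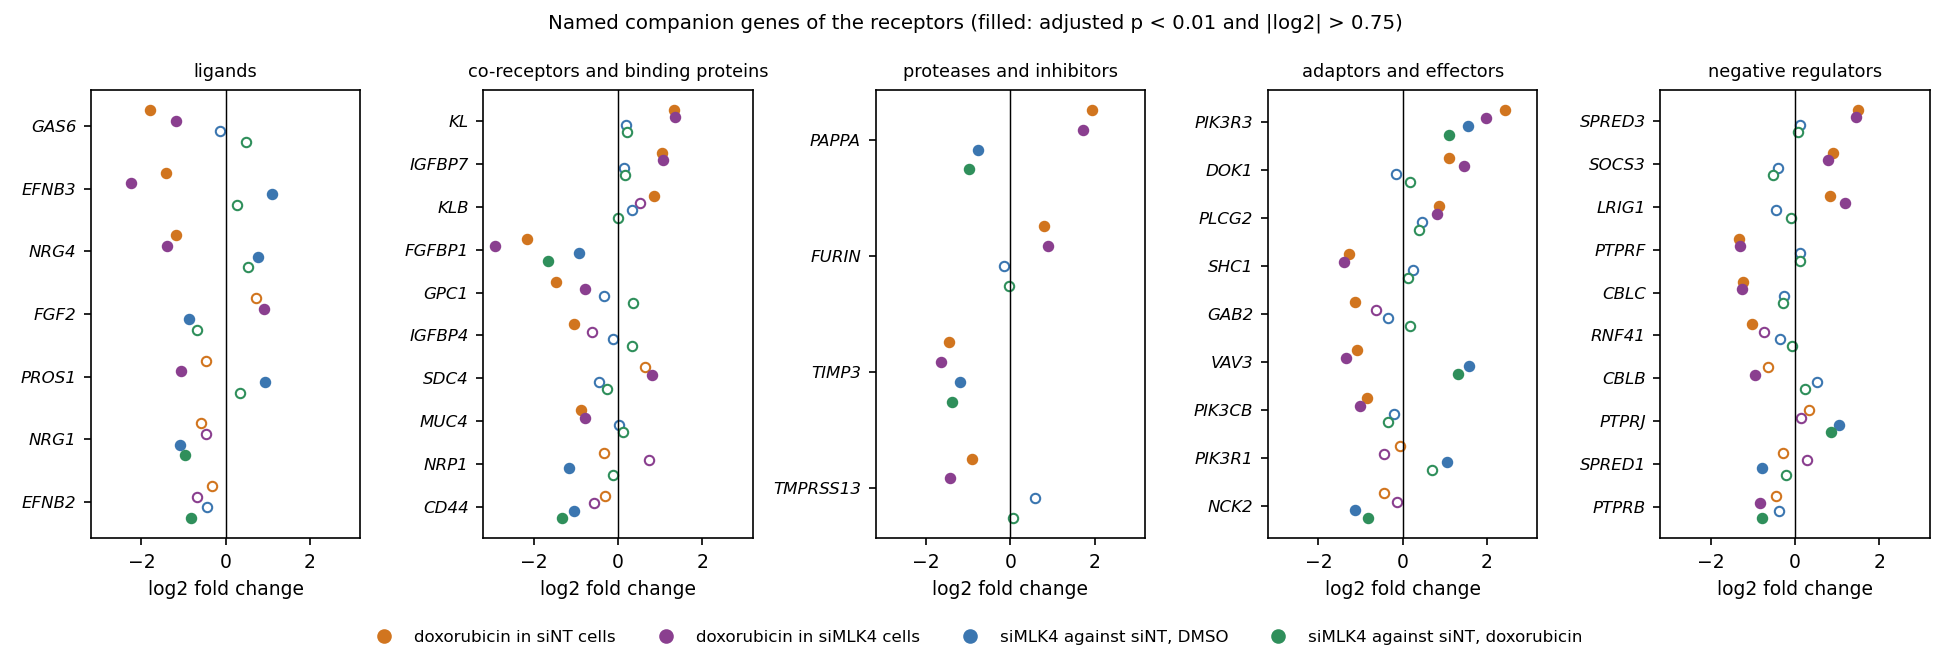
Log2 fold changes (x axes, variance-stabilized scale) of the named companion genes of the receptors in 4 comparisons, by list, with filled points for called changes. GAS6 and FGFBP1 lie to the left with doxorubicin, PIK3R3 and PAPPA to the right, and NRG1, CD44 and NCK2 to the left with siMLK4.

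Of 48 other human receptor tyrosine kinases 35 were tested, and with doxorubicin 5 were called higher and 3 lower in siNT cells and 8 and 3 in siMLK4 cells. These are shares of 14.3% and 8.57% and of 22.9% and 8.57%, beside 12.1% and 10.6% of all genes in siNT and 12.6% and 10.6% in siMLK4 cells. Limma-voom and log2(normalized reads + 1) called more of these kinases with doxorubicin in either siRNA group, by counts given in the closing section. EPHA4 rose from 78.7, 97.6 and 116.8 to 698, 862 and 577 normalized reads in siNT cells (2.37, and 2.41 in siMLK4 cells). RET, the receptor of the GDNF family, rose from 14.1, 18.7 and 26.9 to 155.0, 173.1 and 97.3 in siNT cells and from 18.03, 22.9 and 12.97 to 436.7, 543.7 and 219.6 in siMLK4 cells (1.61 and 2.85). Its siMLK4 change with doxorubicin (1.18, adjusted p = 0.00256) was called, but its adjusted p was 0.0141 to 0.0169 without siNT doxorubicin library 3 or siMLK4 doxorubicin library 1 or 2. EPHA7 had 0 reads in all siMLK4 DMSO libraries and 29.7, 32.5 and 20.0 normalized reads with doxorubicin, at least 8.89-fold higher against a floor of 3 reads per library. STYK1, an atypical member, was called higher in siNT and in siMLK4 cells (0.99 and 0.98). AATK was called lower in siNT cells (-0.83), but not without siNT DMSO library 1 (-0.73) or siNT doxorubicin library 3 (-0.73) or with library totals (-0.746). DDR1, a collagen receptor, was called lower in siMLK4 cells (-0.76), but not without siMLK4 doxorubicin library 2 (-0.71) or with library totals (-0.58). FGFR4 was called lower in siNT cells (-0.85) but not without siNT DMSO library 1 (-0.73) or with library totals (-0.64). Under the size limit, AATK (-0.71, adjusted p = 0.000616) and FGFR4 (-0.56, adjusted p = 0.00198) were also lower in siMLK4 cells. In siNT cells DDR1 was also lower (-0.53, adjusted p = 0.000345) and EPHA7 higher (0.73, adjusted p = 0.000196), again under that limit. The differences of responses of EPHA7, AATK, DDR1 and FGFR4 did not pass 0.05 (adjusted p = 0.0817 to 0.853). With siMLK4 3 were called higher and 0 lower with DMSO, namely KIT, EPHB3 (1.01) and MERTK, a relative of AXL (0.78, but 0.74 and 0.72 without siNT DMSO or siMLK4 DMSO library 2), beside 2.51% and 3.14% of all genes, and 1 and 0 with doxorubicin, beside 2.66% and 2.93%. Limma-voom called 1 lower with either treatment, and at an unadjusted p under 0.05 there were 3 lower with DMSO and 4 with doxorubicin. The median log2 fold changes were 0.17 and -0.15 with doxorubicin and 0.13 and 0.13 with siMLK4, and the second was unchanged with EPHA7 at its bound.

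EGFR, the receptor set apart as known for basal-like cells, fell by 1.34 (adjusted p = 0.000276) with doxorubicin in siNT and by 1.30 (adjusted p = 0.000349) in siMLK4 cells, with 0.06 and 0.10 for siMLK4. KIT, the stem cell factor receptor, had 66.9, 68.5 and 77.5 normalized reads in siNT DMSO, 117.2, 143.5 and 158.2 in siNT doxorubicin, 401.8, 337.8 and 281.1 in siMLK4 DMSO and 128.0, 107.6 and 137.9 in siMLK4 doxorubicin libraries, so that, as for FGFR2, the siMLK4 DMSO libraries were the highest. KIT was called higher with siMLK4 and DMSO (1.71) and lower with doxorubicin in siMLK4 cells (-1.16).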

How the data were processed

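HCC1806 libraries (4 groups, 3 libraries each) came from poly(A)-selected RNA. Per the supplementary methods the authors mapped reads with HISAT2 to GRCh38, removed optical duplicates, counted by strand and used DESeq2. The submitters' processing notes also name Trimmomatic 0.39, HTSeq 0.6.0 and DESeq2 1.26.0, but hg19 as the build. The table holds no coordinates, and those printed are from GENCODE 44 on GRCh38. The deposited values of 17013 genes are variance-stabilized log2 values, as read from the values themselves. Inverting the closed form gave whole reads, within 0.05, for 100% of values, and size factors of 0.852 to 1.20. The lowest group maximum of any gene was 10.7 normalized reads.

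Limma 3.58.1 in R 4.3.3 was fitted to the log2 values (4 group means, all 12 libraries, variance trend), with Benjamini-Hochberg adjustment over all genes. A count model had been planned in case the file held counts. Members and lists were chosen with earlier results of these data known. Named are all 10 receptors, MAP3K21, EGFR and KIT, the cell type markers, for each list and comparison up to 3 called genes of largest change per direction, and the 2 most like protein-coding genes per receptor. Counts of the lists cover all tested members.

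In 2 comparisons equally numbered libraries deviated together in all 3 pairs: doxorubicin in siNT cells (correlations 0.46, 0.105 and 0.205) and siMLK4 against siNT with doxorubicin (0.19, 0.516 and 0.559). This pairing comes from the values alone. It did not hold for siMLK4 against siNT with DMSO (-0.723, 0.325 and -0.523). There siNT library 1 with siMLK4 library 3 gave 0.688, and siNT library 3 with siMLK4 library 1 gave 0.652. For doxorubicin in siMLK4 cells the values of equal numbers were -0.0774, 0.176 and 0.337. Chi-square tests separated all replicate pairs (7.01 to 63.7 per degree of freedom), so none was a repeat deposit. Alternatives were library totals and trimmed mean of M-values scaling, at least 10 reads in every library (13295 genes), log2(normalized reads + 1), limma-voom on recovered reads, the compared groups alone, no variance trend, a replicate block, leaving out each library, and, chosen after seeing the data, the length slope as a covariate. The code was tested on simulated data.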

Additional observations from a re-analysis of the deposited data

Results flagged for a closer look

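At an adjusted p under 0.05, 1 of the 10 receptors, FGFR2, had a doxorubicin response that differed between siMLK4 and siNT cells by a test of the difference itself (limma, adjusted over all genes), beside 0.576% of all genes with a higher and 0.623% with a lower response in siMLK4 cells. With the limits of 0.01 and 0.75 it was 0 receptors, limma-voom also called 0, and 2 (FGFR2 and ERBB3) reached an unadjusted p under 0.05. FGFR2 responded by 0.22 in siNT and -0.63 in siMLK4 cells on the log2 scale, a difference of -0.848 (SE 0.17, adjusted p = 0.0281). The siMLK4 DMSO libraries of FGFR2 were the highest of all 12. In 6 of the fits that left out 1 library the adjusted p was 0.0562 to 0.0841.

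KIT, outside the 10, responded by 0.67 in siNT and -1.16 in siMLK4 cells, a difference of -1.832 (SE 0.19, adjusted p = 0.0016). Without siMLK4 doxorubicin library 1 its adjusted p was 0.0118 and the difference -1.85.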

How the results depend on the processing

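Of 1040 receptor fold changes under the alternatives, 973 kept their direction and their side of an adjusted p of 0.05, 25 lost it, 11 gained it and 31 changed sign, and none of those 31 passed 0.05 in either fit. The replicate block changed no receptor call, and the counts called with the replicate block were 3, 3, 2, 1 and 0 as without it. At an adjusted p under 0.05 in place of 0.01 and with no size limit, receptors called rose from 3 to 7 and from 3 to 6 for doxorubicin in siNT and siMLK4 cells, from 2 to 6 and from 1 to 4 for siMLK4 with DMSO and doxorubicin, and from 0 to 1 for the difference of responses. With limma-voom the 2 siMLK4 counts were 4 and 2. With doxorubicin the siMLK4 count was 2 on log2(normalized reads + 1) and 0 with library totals, and the difference of responses gave 1 with the length slope.

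With library totals the median log2 fold change of all genes was 0.18, 0.16, 0.11 and 0.09 in the 4 comparisons. Called genes split 2848 higher and 1094 lower with doxorubicin in siNT cells (2060 and 1799 as reported), 2888 and 1275 in siMLK4 cells (2147 and 1802), 632 and 346 for siMLK4 with DMSO (427 and 534) and 623 and 396 with doxorubicin (452 and 498). Under this scaling the doxorubicin values of MET were -0.28 (adjusted p = 0.183) in siNT and -0.37 (adjusted p = 0.0759) in siMLK4 cells, and AXL with doxorubicin was under the size limit (-0.67 and -0.73). IGF1R with doxorubicin in siNT cells (0.86) and FGFR3 for siMLK4 with DMSO (0.85) were called. FGFR2 (0.43, adjusted p = 0.00781) and ERBB2 (0.35, adjusted p = 0.00926) with doxorubicin in siNT cells, ERBB3 (0.36, adjusted p = 0.0225) for siMLK4 with DMSO and ERBB2 (0.30, adjusted p = 0.0431) with doxorubicin passed 0.05.

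Signs that changed, all for log2 fold changes that passed in no fit, were those of EPHB4 (0.053) with doxorubicin in siNT cells, ERBB2 (0.152) and ERBB3 (0.083) in siMLK4 cells, and EPHB4 (0.086) and MET (0.071) for siMLK4 with DMSO and with doxorubicin, under library totals. MET was 0.004 there with the trimmed mean of M-values. The AXL difference of responses was -0.063 with library totals, -0.354 with limma-voom and -0.337 on log2(normalized reads + 1). Leaving out 1 library gave -0.066 to 0.02 for ERBB2 and -0.001 to 0.097 for EPHB4 with doxorubicin in siMLK4 cells. For siMLK4 with DMSO it gave -0.094 to 0.185 for MET and -0.167 to 0.05 for EPHB4, and with doxorubicin -0.171 to 0.089 for MET. The differences of responses ranged from -0.2 to 0.079 for MET and from -0.084 to 0.102 for AXL. The cause was not tested.

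Of 264 counts over the companion lists, 227 stayed within 1.5 times, and 20 of the other 37 came from that same pair of changes, the adjusted p of 0.05 with no size limit. With doxorubicin 8 and 11 other receptor kinases were called in siNT and siMLK4 cells, against 18 and 18 with limma-voom, 20 and 18 on log2(normalized reads + 1), and 7 in siMLK4 cells among genes with 10 reads in every library. With siMLK4 and DMSO the count was 3 against 5 by both, and with doxorubicin 1 against 3 and 4, where ligands went from 2 to 4 and 5. Co-receptors went from 8 to 5 with doxorubicin in siNT cells among genes with 10 reads, and from 3 to 1 for siMLK4 with DMSO in a fit of those groups alone. Library totals left 1 of 2 proteases for siMLK4 with DMSO, and 1 of 2 negative regulators with either treatment. A fit of those groups alone also left 1 of 2 negative regulators with DMSO. The up to 3 called companions of largest change per list, comparison and direction made 95 calls, and 19 of these were lost without at least 1 library. In 13 of them the size fell to 0.75 or less, and the highest adjusted p among the 19 was 0.0403. AXL, at 14 reads in its lowest library, is the receptor whose values depth limits most.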
